A study of Rattus norvegicus with 12 samples.

Results

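The loci described here are stretches of the rat genome that gave RNA in the midbrain periaqueductal grey, carry no annotated transcript, and were assembled as a single exon. A locus is a group of overlapping transcripts that share 1 gene identifier in the authors' files. A locus was included when all its transcripts had an identifier given by the assembler (beginning MSTRG), all had 1 exon, and its level averaged at least 1 TPM over the 12 libraries. TPM is a level per length of transcript, scaled so that each library has the same total. Of 40076 loci in the files, 8079 consisted of assembled transcripts alone, 5960 of these had a single exon, and 4576 (11.4% of all loci) reached the level. The loci were chosen by their mean TPM over these libraries, so their levels are given below as a description without a test.

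The libraries came from male Sprague Dawley rats, 6 sired by males given saline and 6 sired by males given morphine, and measured polyA RNA of dissected periaqueductal grey. This midbrain region takes part in descending control of pain, and the study asked about the response of offspring to morphine. The labels name no dose, age, litter or sire and do not say whether offspring themselves received a drug. P-values therefore measure the spread between these animals, some of which may share a sire.

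An assembler joins overlapping reads into transcript models and compares them with a reference annotation. An unannotated model with a single exon can come from a 3′ untranslated region longer than the annotated one, from a processed pseudogene (a copy of a spliced messenger RNA put back into the genome), from an intron, or from a noncoding RNA such as the precursor of a microRNA. Without a splice junction nothing in the model itself gives its strand, and 3187 of the 4576 loci had none in the files. A strand was fixed as plus for 447 loci and minus for 574, and for 368 loci it differed between library files.

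The genome build of the files is Rnor_6.0, and sequence of the loci themselves is not used here. Where a locus adjoins an annotated microRNA gene, the mature microRNAs show which precursor it adjoins. For 43 loci the nearest annotated gene was a microRNA gene, 32 of them within 5 kb and 9 within 50 bases, and 8 of those 9 began just past the 3′ end of the precursor. A microRNA precursor is cut out of a longer primary transcript, and the mature microRNA finds its targets through its seed, bases 2 to 8. The mature forms beside the 4 highest of these loci are shown 5′ to 3′ from RefSeq (GRCr8), with the seed in capitals; they were not measured in these libraries.
rno-miR-135a-5p: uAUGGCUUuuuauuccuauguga
rno-let-7i-5p: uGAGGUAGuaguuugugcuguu
rno-miR-132-3p: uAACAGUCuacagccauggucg
rno-miR-34a-5p: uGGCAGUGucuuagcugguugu

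The 4 seeds differ from one another. MSTRG.22002 (chr7:32894248-32894867, minus strand, 620 bases) started 10 bases past Mir135a and was at 22.4 TPM on average. Its lowest, median and highest levels were 17.0, 20.4 and 30.0 TPM in saline-sired and 11.6, 22.9 and 31.4 TPM in morphine-sired libraries, so the groups overlapped. Mir135a itself was listed at 0 to 2.60 TPM. MSTRG.22199 (chr7:66802833-66803333), 12 bases past Mirlet7i, was at 9.78 TPM, and Mirlet7i was the microRNA gene with the most of these loci nearest to it, 5. MSTRG.4228 (chr10:62015097-62016866, minus strand) lay 2 bases past Mir132, a microRNA induced by neuronal activity, at 4.66 TPM. MSTRG.20090 (chr5:167092594-167094283) lay 2 bases past Mir34a, a target of the tumour suppressor p53, at 3.64 TPM. The other loci within 50 bases of a microRNA gene adjoined Mir124-3, Mir138-1, Mir30c2, Mir24-2 and Mir3588, with mean levels of 1.55 to 2.30 TPM. None of the 9 was at an unadjusted p under 0.05 between sire groups in the limma fit described below, where 3.22% of everything tested was.

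Depth and dissection set limits on what follows. Libraries held 4.39 to 6.03 gigabases of aligned sequence. Low base totals fell within 1 base of a multiple of 270 in 9.72% of cases, where even spacing would give 0.741%, so 270 bases were taken as 1 read pair. On that scale the loci had a median of 11.7 pairs per library (quartiles 5.16 and 38.2), and 1099 had fewer than 5. Neuronal and glial marker genes were present in all libraries, but 3 libraries (saline-sired 1 and 6, morphine-sired 1) held 0.450 to 0.672 TPM of the serotonergic marker Tph2 against 1.15 to 445 TPM in the other 9, and 0.0955 to 1.15 TPM of the motor neuron marker Chat against 17.1 to 36.4 TPM. Ttr, a choroid plexus marker, was at 1756 TPM in morphine-sired 2 and at 0.286 to 413 TPM elsewhere.

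Most of the loci were short and low. Their level had a median of 1.94 TPM (quartiles 1.46 and 3.34) and reached 1490 TPM, against medians of 3.04 TPM for the 1823 unannotated multi-exon loci and 18.6 TPM for the annotated loci of at least 1 TPM. Between 1 and 2 TPM lay 2387 loci (52.2%), while 743 were at 5 TPM or more, 182 at 20 TPM or more and 20 at 100 TPM or more. Their length ran from 200 to 13111 bases with a median of 611 (quartiles 344 and 1326), 841 were no longer than 300 bases and 121 exceeded 5000 bases. The 3 highest loci held 12.2% of their summed TPM, and the 100 highest 40.0%. The loci together held 2.52% ± 0.109 of a library's TPM in the saline-sired group and 2.50% ± 0.0833 in the morphine-sired group (SD, n = 6 in both), a difference smaller than either SD.

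**Figure D1:**
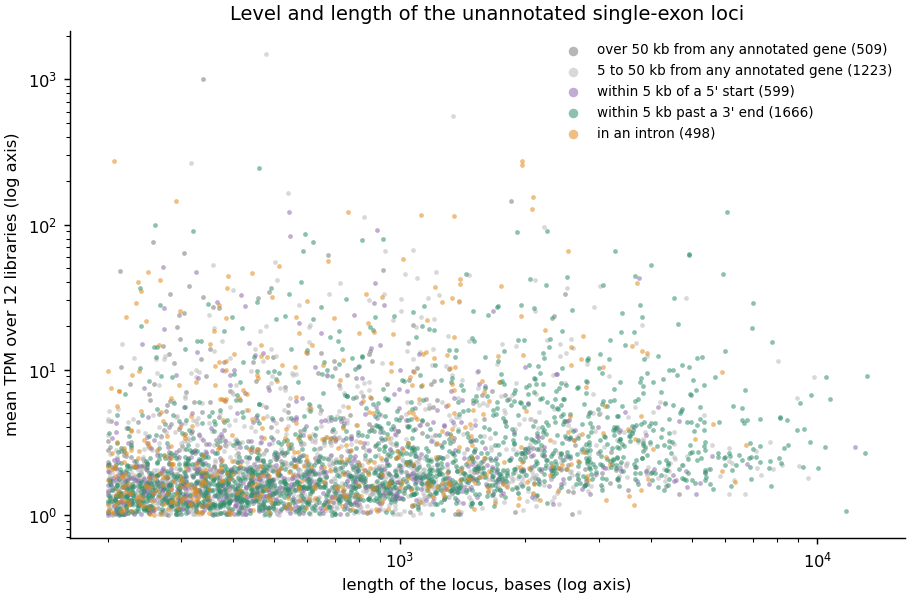
Mean TPM over the 12 libraries (vertical, log axis) against locus length in bases (horizontal, log axis), 1 point per locus, coloured by position relative to annotated genes. The 20 loci over an annotated exon and the 61 on sequences with no annotated gene are not drawn. Of all 4576 loci, drawn or not, all but 743 are under 5 TPM, and the longest, of 13111 bases, lies just past a 3′ end.

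Just inside the threshold were MSTRG.12996 in an intron of Skp2, MSTRG.18727 past Pnisr and MSTRG.23265 past Zfp846, each at 1.00 TPM. Just outside were MSTRG.13093 at 0.999 TPM, and MSTRG.24254 and MSTRG.21935 at 1.00 TPM after rounding. These 6 loci ranged over the 12 libraries from 0 to 3.32 TPM.

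Every chromosome held such loci. On chromosomes 1 to 20 there were 29.6 per 100 annotated loci of at least 1 TPM. The ratio was lowest on chromosomes 10 (21.3) and 20 (21.4) and highest among these on chromosome 2 (39.7), and it was 40.5 on X. Chromosome 1 held the most, 514. Chromosome Y held 5 beside 9 annotated loci, the mitochondrial genome held 1, and 91 lay on 81 sequences not placed on a chromosome.

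The commonest position was just past the 3′ end of an annotated gene. There, within 5 kb, lay 1666 loci (36.4%), while 599 (13.1%) lay within 5 kb of a 5′ start, 1223 (26.7%) were 5 to 50 kb from any annotated gene, and 509 (11.1%) were over 50 kb away. Inside introns lay 498 (10.9%), over an annotated exon 20, and 61 were on sequences with no annotated gene. Of the 1823 unannotated multi-exon loci only 7.02% lay within 5 kb past a 3′ end, and 39.9% overlapped an annotated exon. Of the 20 single-exon loci over an annotated exon, 15 were on the strand opposite the gene and 4 on its strand. Among loci outside annotated genes, the nearest edge was a 3′ end for 2569 of 3997 single-exon loci (64.3%) and 386 of 921 multi-exon loci (41.9%). Within 1 kb it was a 3′ end for 895 of 1189, and beyond 50 kb for 252 of 509.

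**Figure D2:**
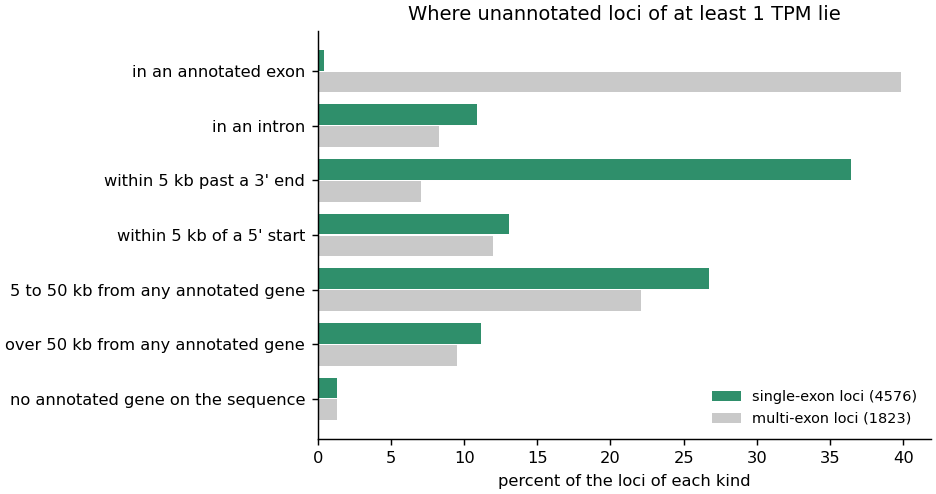
Percent of the 4576 single-exon loci (green) and of the 1823 multi-exon unannotated loci (grey) in each position; each locus is counted once. The longest green bar is the class within 5 kb past a 3′ end, 36.4%, where the grey bar is 7.02%.

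The loci past 3′ ends had a median length of 846.5 bases, against 483 to 565 bases in introns, near 5′ starts and farther away and 941.5 bases for the 20 over an annotated exon. Their median distance from the gene was 878 bases, and 194 began within 100 bases. They adjoined 1468 genes, of which 173 had more than 1, and Brinp1, a neuronal inhibitor of cell division, had the most, 4. Where a strand was fixed, 319 of 409 were on the strand of the gene they followed. In introns the balance was the other way, with 66 of 192 on the strand of the host gene and 126 on the opposite strand.

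A locus past a 3′ end was usually lower than its gene, as were loci in the other positions. In the 1498 cases where the gene averaged at least 1 TPM, the ratio of the locus to the gene had a median of 0.214 (quartiles 0.0562 and 0.626), and 147 loci exceeded their gene. In introns the median ratio was 0.419, and 69 of 361 loci exceeded the host gene. The median was lower still near 5′ starts (0.108), at 5 to 50 kb (0.120) and beyond 50 kb (0.174). Past 3′ ends it was 0.613 for loci of at least 5 TPM, so it depended on the level of the locus. Across the 12 libraries the levels of a locus and its gene, as log2(TPM + 1), had a median Pearson correlation of 0.25 past 3′ ends, 0.15 in introns, 0.11 near 5′ starts and 0.09 beyond 50 kb. Past 3′ ends it was 0.43 for the 242 loci of at least 5 TPM. All these pairs share library depth and tissue composition, and low loci carry much counting error, so the values are given as a description. In 142 of 3293 pairs the correlation exceeded 0.8, and 100 of those were past a 3′ end.

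The 8 pairs with the highest correlation were chosen after their values were seen. MSTRG.18892 (chr5:60000973-60006740), 847 bases past Pax5, a transcription factor of the midbrain-hindbrain boundary, was at 12.4 TPM in saline-sired 2 and 7.88 TPM in morphine-sired 2, and Pax5 was at 13.9 and 9.30 TPM there. In the other 10 libraries the locus was at 0.0192 to 3.89 TPM. MSTRG.15502 (chr3:12605912-12607360), 2214 bases past Lmx1b, a factor that serotonergic neurons need, was at 14.0 and 9.21 TPM in the same libraries and at 0.0922 to 5.59 TPM in the rest. Tph2 was high in those libraries too, at 445 and 195 TPM, and also in saline-sired 3, at 196 TPM. The summed level of the 5 serotonergic markers listed, all 5 of them found, ran from 11.3 to 1001 TPM in saline-sired and from 14.7 to 455 TPM in morphine-sired libraries, and its part in these levels was not tested. In bulk tissue fewer cells of a type and less RNA per cell cannot be told apart. The 8 pairs also included a locus past Cit and 1 beside AABR07063462.1.

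Several of these loci follow genes known from the cerebellum, and why they differed between libraries was not tested. MSTRG.9015 (chr15:34545102-34547982), 313 bases past the granule cell gene Cbln3, was at 20.1 TPM in saline-sired 2 and at most 0.386 TPM in any other library, and Cbln3 was at 33.8 TPM in that library and at most 0.217 TPM elsewhere. MSTRG.18637 (chr5:21246075-21248930), 90 bases past the Purkinje cell gene Car8, was at 21.5 TPM in saline-sired 2 against 2.15 to 5.75 TPM. MSTRG.24068 (chr8:98731251-98734239), 56 bases past Zic1, was highest in saline-sired 6 at 11.6 TPM and morphine-sired 1 at 10.4 TPM. Morphine-sired 5 at 9.74 TPM and saline-sired 2 at 9.32 TPM came next, and morphine-sired 3 was lowest at 1.29 TPM. MSTRG.6149 past Grid2ip was also highest in saline-sired 6 and morphine-sired 1, at 15.5 and 12.2 TPM. High libraries occurred in both sire groups for Zic1 and Grid2ip, and in saline-sired 2 alone for Cbln3 and Car8.

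**Figure D3:**
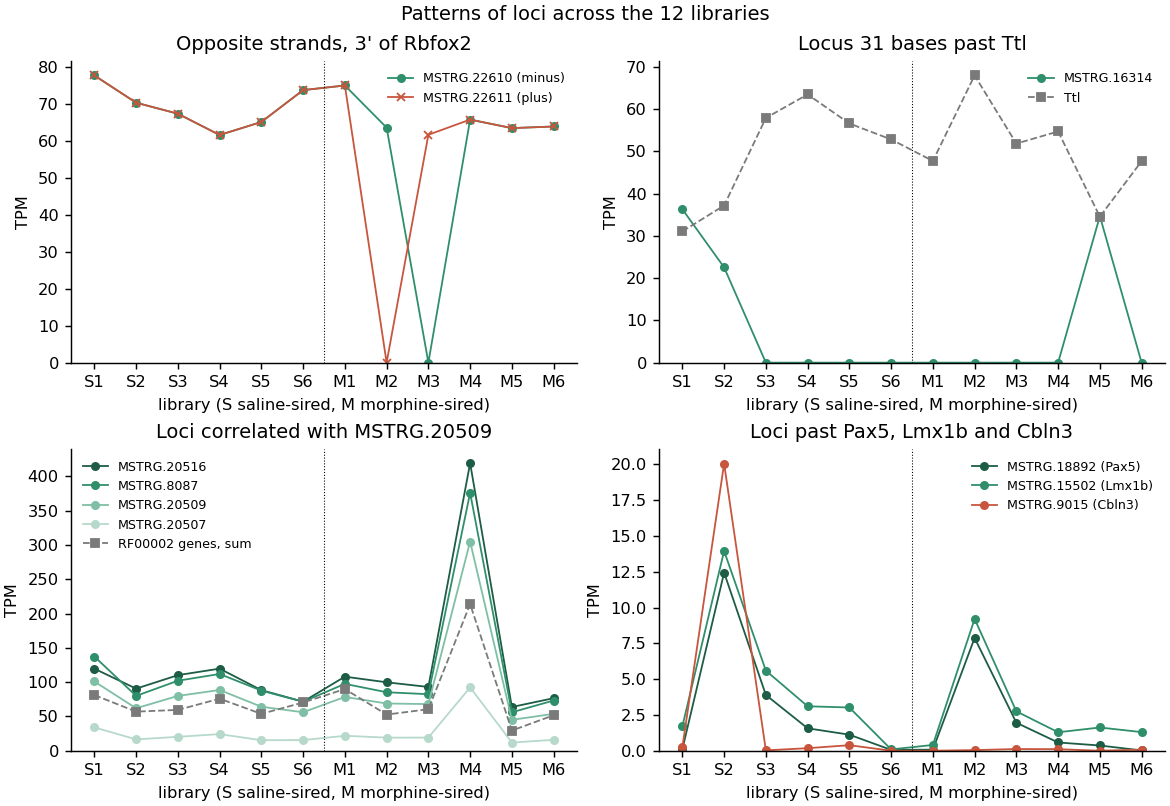
TPM (vertical) of selected loci in each library (horizontal, S saline-sired 1 to 6 and M morphine-sired 1 to 6, divided by the dotted line), with dashed grey lines for annotated neighbours. The loci on both strands past Rbfox2 coincide except where one is at 0, the locus past Ttl is above 0 where Ttl is lowest, the loci correlated with MSTRG.20509 peak in M4, and those past Pax5, Lmx1b and Cbln3 peak in S2.

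The region between Dlk1 and the microRNA gene Mir673 held a single unannotated locus. MSTRG.21301 (chr6:133584470-133586716, plus strand, 2247 bases) began 719 bases past Dlk1, an imprinted gene, and averaged 90.8 TPM. RefSeq lists the imprinted noncoding RNA Meg3 between the same 2 genes, and the files carry no gene of that symbol. In the narrower interval that flanks the locus, between Dlk1 and Mir770, RefSeq lists only LOC134479157, a protein-coding gene. Whether the locus belongs to Meg3 was not tested. The lowest, median and highest levels of MSTRG.21301 were 37.8, 91.1 and 129 TPM in saline-sired and 60.7, 82.1 and 133 TPM in morphine-sired libraries. Saline-sired 6 and morphine-sired 1 were the lowest of their groups, and the groups overlapped. Dlk1 ranged from 48.9 TPM in saline-sired 6 to 276 TPM in morphine-sired 3.

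Of 26 long or structural noncoding RNA genes listed for this tissue, 4 were in the files under their symbol and 12 were in RefSeq. Besides Meg3, the interval of Miat, between Cryba4 and Mn1, held 1 of the loci (MSTRG.6788, 1.78 TPM) and 2 multi-exon loci, the higher at 14.96 TPM. The interval of Xist, the noncoding RNA of X inactivation, between Tsx and Mir421 held 4 of the loci, the highest of them MSTRG.26382 at 15.8 TPM, and 1 multi-exon locus at 1.99 TPM.

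Of the 10 highest loci, 5 lay over 5 kb from any annotated gene and 4 in introns. MSTRG.19497 (chr5:138042656-138043134, plus strand, 479 bases) had lowest, median and highest levels of 1377, 1453 and 1590 TPM in saline-sired and 1422, 1521 and 1600 TPM in morphine-sired libraries. MSTRG.4010 (chr10:49699096-49699434, 339 bases) was at 842, 1003 and 1160 TPM in saline-sired and 977, 1025 and 1075 TPM in morphine-sired libraries. MSTRG.19612 (chr5:143864682-143866023, minus strand, 1342 bases) was at 518, 573 and 647 TPM in saline-sired and 513, 558 and 588 TPM in morphine-sired libraries. The groups overlapped for all 3, and the SD of log2(TPM + 1) over the 12 libraries was 0.07, 0.13 and 0.10.

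The genes that RefSeq lists between the same neighbours were looked up for these 3 loci. Between Lao1 and Slc2a1, which flank MSTRG.19497, RefSeq lists 4 genes, 2 of them pseudogenes. One of these is Ubb-ps1, a pseudogene of the ubiquitin gene Ubb, and a noncoding RNA is also listed. Between Pmp22 and Hs3st3b1, which flank MSTRG.4010, it lists 3 genes, the ubiquitin pseudogene Ubbl2 and 2 noncoding RNA genes. Between Grik3 and Csf3r, which flank MSTRG.19612, it lists Hsp90aa1-ps17, a pseudogene of the heat shock protein gene Hsp90aa1, and 5 more pseudogenes. The genes after which these pseudogenes are named were abundant, with Ubb at 745 to 2893 TPM and Hsp90aa1 at 23.6 to 444 TPM. Whether any of the 3 loci is such a pseudogene was not tested. Reads shared by near-identical copies are divided by the counting. The level of a locus that is such a copy, and of the gene it copies, would therefore be uncertain. The interval between flanking genes could be compared between builds for 772 of the 1732 loci over 5 kb from any annotated gene, and 365 of those intervals (47.3%) held a pseudogene. Among the 50 highest such loci it was 13 of 19 (68.4%), with a median interval of 214 kb against 165 kb. Over all 4576 loci, wherever they lay, it was 900 of 2642 (34.1%). Among the 50 highest of all loci it was no larger, 11 of 35 (31.4%).

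The next highest loci included 4 in introns. MSTRG.17428 (chr4:58083443-58085408) and MSTRG.17425 (chr4:58076296-58078378), both on the plus strand in an intron of Copg2, a coat protein gene beside the imprinted gene Mest, were at 208 to 334 TPM and 118 to 197 TPM. Copg2 itself was at 85.8 to 104 TPM. MSTRG.11201 (chr18:24782203-24782409, 207 bases), in an intron of the myosin gene Myo7b, was at 200 to 312 TPM, while Myo7b was at 0.0115 to 0.124 TPM. Farther from genes, MSTRG.8532 (chr14:107940198-107940514) was at 213 to 294 TPM, and MSTRG.23805 (chr8:69722123-69722664) at 128 to 220 TPM. The groups overlapped for all 5.

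The longest locus followed a channel gene. MSTRG.5418 (chr11:35011067-35024177, 13111 bases) began 19 bases past the 3′ end of Kcnj6, which encodes the GIRK2 potassium channel subunit opened by opioid receptors through G proteins. Its lowest, median and highest levels were 7.48, 7.97 and 14.1 TPM in saline-sired and 6.93, 8.48 and 10.7 TPM in morphine-sired libraries. Saline-sired 1 and 6 and morphine-sired 1 were the 3 highest, and the groups overlapped. Kcnj6 averaged 12.6 ± 1.71 TPM (SD, n = 12). The files place the locus on the plus strand and Kcnj6 on the minus strand. The other 2 longest were MSTRG.17955 (chr4:123787620-123800645, 13026 bases), 92 bases past Ccdc174, at 2.68 TPM, and MSTRG.2108 (chr1:195014381-195026650, 12270 bases), beside a small nucleolar RNA gene between Zkscan2 and Snurf, at 2.95 TPM.

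Receptor and signalling genes of pain control had such loci as well. Of 166 genes of opioid, G protein, monoamine, GABA, glutamate, cannabinoid and acetylcholine signalling in the annotation, a list widened after the data were seen, 30 had at least 1 of the loci in an intron or within 5 kb. There were 35 such loci, 28 of them past a 3′ end, 4 before a start and 3 in an intron. MSTRG.8425 (chr14:87425934-87429924, plus strand) lay 4275 bases past Adcy1, a calcium-stimulated adenylyl cyclase, at 52.6 TPM beside 46.6 TPM for Adcy1. Its levels were highest in saline-sired 6 at 86.9 TPM and lowest in morphine-sired 3 at 36.7 TPM, the library in which Adcy1 was lowest too.

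MSTRG.26769 (chrX:152413911-152414560, minus strand), 55 bases past the GABA-A receptor gene Gabra3, was at 26.9 ± 4.85 TPM (SD, n = 12). MSTRG.17016 (chr3:177235751-177240503), 4088 bases past the nociceptin receptor gene Oprl1, was at 10.7 ± 1.27 TPM. MSTRG.321 (chr1:43530900-43531321), in an intron of the mu opioid receptor gene Oprm1, was at 3.58, 6.32 and 12.5 TPM (lowest, median, highest) in saline-sired and 2.36, 6.34 and 13.6 TPM in morphine-sired libraries. It was highest in saline-sired 1 and 6 and morphine-sired 1, where Oprm1 was highest too, at 17.9 to 19.8 TPM. MSTRG.19736 (chr5:150285290-150288120, minus strand), 6 bases past the delta opioid receptor gene Oprd1 and on its strand, was at 3.49 ± 0.586 TPM, and Oprd1 was at 5.30 ± 1.14 TPM. The 35 loci included 2 (5.71%) at an unadjusted p under 0.05 in the limma fit between sire groups, those past Htr1a and Htr1f, against 3.22% of everything tested.

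Spread between libraries was larger than for annotated loci of the same level. The SD of log2(TPM + 1) within groups had a median of 0.38 over the 4576 loci. Between 1 and 2 TPM it was 0.46, against 0.53 for multi-exon unannotated loci and 0.30 for annotated ones. Between 2 and 5 TPM the 3 values were 0.30, 0.36 and 0.25, between 5 and 20 TPM 0.23, 0.29 and 0.18, and at 20 TPM or more 0.17, 0.23 and 0.13. The loci were also shorter than annotated ones and so rested on fewer reads at the same level, with a median of 5.84 against 18.4 pairs per library between 1 and 2 TPM and 307 against 1117 pairs at 20 TPM or more. How much of the spread the read number accounts for was not tested.

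**Figure D4:**
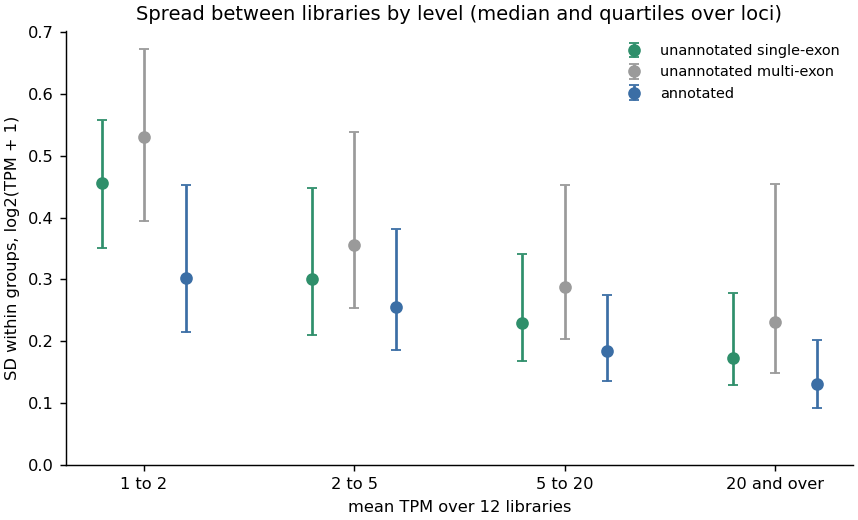
Median within-group SD of log2(TPM + 1) (vertical; bars, quartiles over loci) in 4 bands of mean TPM (horizontal) for single-exon unannotated, multi-exon unannotated and annotated loci. In each band the single-exon loci lie between the other 2 classes, from 0.46 at 1 to 2 TPM down to 0.17 at 20 TPM or more.

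Some loci of high average level were listed at 0 in single libraries. In 482 of the 4576 loci at least 1 library was listed at 0. This included 45 of the 743 loci at 5 TPM or more (6.06%), against 17 of 12012 annotated loci at that level (0.142%). Of these 45 loci, 42 had a fixed strand, against 296 of the other 698, and 36 overlapped another assembled exon, against 60. At 0 in 1 library alone were 18, and 6 were at 0 in 6 or more.

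Part of this list overlapped a locus on the other strand. There were 32 pairs of loci that overlapped each other, all on opposite strands and 23 over at least 95% of the longer locus. Over 384 combinations of pair and library, both strands were above 0 in 297 and within 5% of each other in 185 of those, and in 87 only 1 strand was above 0. MSTRG.22610 and MSTRG.22611 (both chr7:118151356-118156295), past the splicing regulator Rbfox2, had the same level to the second decimal in 10 libraries, 61.5 to 77.6 TPM. In morphine-sired 3 the minus strand was at 0 and in morphine-sired 2 the plus strand, with the partner at 61.6 and 63.5 TPM. Equal levels on both strands do not tell which strand the RNA came from.

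Some of the loci with the largest spread were in such pairs. MSTRG.17424, the minus-strand partner of MSTRG.17425 in the Copg2 intron, was listed at 0 in saline-sired 1 and 3 and at 118 to 198 TPM in the other 10 libraries. MSTRG.17429, the partner of MSTRG.17428, was at 0 in morphine-sired 1 and at 208 to 334 TPM in the rest. The plus-strand partners were above 0 in all 12 libraries. Counting each overlapping pair once lowered the share of TPM held by the loci to 2.46% ± 0.115 for saline-sired and 2.44% ± 0.0837 for morphine-sired libraries (SD, n = 6 in both).

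A few other loci traded places with an annotated neighbour. The correlation was under -0.8 in 6 of 3293 pairs, and those described next were among the lowest, chosen after their values were seen. MSTRG.16314 (chr3:121624079-121626573), 31 bases past Ttl, which encodes tubulin tyrosine ligase, was at 36.3, 22.6 and 34.7 TPM in saline-sired 1 and 2 and morphine-sired 5 and at 0 in the other 9. Ttl was at 31.1 to 37.2 TPM in those 3 libraries and at 47.7 to 68.0 TPM in the other 9, without overlap. MSTRG.17507 (chr4:66915619-66921610), 403 bases past the histone demethylase gene Kdm7a, was at 4.62 to 5.66 TPM in 6 libraries and at 0 in 6. Kdm7a was at 2.95 to 4.18 TPM where the locus was present and at 6.19 to 7.37 TPM where it was at 0.

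MSTRG.25866, the mitochondrial locus (chrMT:15447-16313), was at 347 TPM in saline-sired 6 and at 0 in the other 11 libraries. The annotated mitochondrial gene AY172581.2, 32 bases away, was at 29.8 TPM in that library and at 187 to 239 TPM elsewhere. The remaining loci with the largest spread were MSTRG.5609 (chr11:65376023-65376984), at 0 in 5 libraries and at 3.77 to 50.1 TPM in 7, and MSTRG.15990 (chr3:92517598-92518988), at 0 in 2 libraries and up to 65.4 TPM. Libraries at 0 occurred in both sire groups for MSTRG.5609.

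A set of 7 loci was highest in the same library, morphine-sired 4. They were found by a correlation over 0.9 with MSTRG.20509, itself counted, (chr6:30631950-30633862), which lies 896 bases past a gene of RF00002, an Rfam ribosomal RNA family. An RF00002 gene was the nearest annotated gene for 2 of the 7. MSTRG.20509 was at 305 TPM in morphine-sired 4 and at 45.04 to 101 TPM in the other 11 libraries. MSTRG.20516 was at 419 TPM in morphine-sired 4 and at 63.7 to 120 TPM elsewhere, and MSTRG.8068, on chromosome 14, at 733 TPM and at 119 to 289 TPM. The summed level of the 37 annotated RF00002 genes was 214 TPM in morphine-sired 4 and 29.4 to 89.9 TPM elsewhere. Without morphine-sired 4 the log2 difference of MSTRG.8068 between sire groups changed sign, from 0.11 to -0.23.

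Between sire groups no locus passed an adjusted p of 0.05. The comparison was fitted with limma on log2(TPM + 1) over all 24540 genes and loci of at least 0.5 TPM, with Benjamini-Hochberg adjustment over all of them, and 0% of these passed. At an unadjusted p under 0.05 there were 202 of the 4576 loci (4.41%), against 3.22% of everything tested. Of the 202 loci, 81 were higher in morphine-sired rats (1.77% of the loci, against 1.5% of all genes tested) and 121 lower (2.64%, against 1.72%). The groups did not overlap for 6 loci (0.131%), against 0.0896% of all genes tested. A 95% interval reached 0.46 to either side of the difference (log2, median over the loci) and 0.30 for all genes, and for 3979 loci (87.0%) the interval lay between -1 and 1.

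By position, an unadjusted p under 0.05 was found for 63 of the 1666 loci past 3′ ends (3.78%) and 29 of 498 in introns (5.82%). It was found for 38 of 599 near 5′ starts (6.34%), 51 of 1223 at 5 to 50 kb (4.17%) and 19 of 509 over 50 kb away (3.73%). Over everything tested the share was 3.22%, with 1.5% higher and 1.72% lower in morphine-sired rats. Near 5′ starts 25 were higher and 13 lower. More were lower than higher past 3′ ends (39 against 24), in introns (20 against 9), at 5 to 50 kb (35 against 16) and over 50 kb away (12 against 7). Whether these shares differ between positions was not tested.

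The loci as a whole had a median log2 difference of -0.02, and in 55.2% the morphine-sired mean was the lower one, against 50.8% of all genes tested. Saline-sired 1 stood apart here. In it the loci were above their own medians by 0.14 (log2, median over loci), by 0.19 past 3′ ends and by 0.21 for loci over 1200 bases, and in the other 11 libraries the median over loci was between -0.06 and 0.02. Without saline-sired 1 the median difference was 0.01, the same as for all genes.

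The 6 loci with the smallest p averaged 1.08 to 7.30 TPM. MSTRG.3190 (chr1:273402617-273402850, 234 bases), over 50 kb from any annotated gene between Ins1 and Xpnpep1, had lowest, median and highest levels of 0.593, 0.807 and 1.91 TPM in saline-sired and 2.33, 3.26 and 4.45 TPM in morphine-sired libraries. The groups did not overlap, and saline-sired 6 was the highest of its group. The log2 difference was 1.19 ± 0.17 (SE) with a limma adjusted p of 0.357, and the locus rested on 4.42 read pairs per library.

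MSTRG.1796 (chr1:164916918-164921827, 4910 bases), 253 bases past the ubiquitin ligase gene Rnf169, was at 0.568, 3.78 and 4.63 TPM in saline-sired and 0.153, 0.668 and 1.03 TPM in morphine-sired libraries. Saline-sired 4, at 0.568 TPM, lay within the morphine-sired range, and the other 5 saline-sired libraries lay above it. The log2 difference was -1.33 ± 0.29 (SE) with a limma adjusted p of 1.00. Rnf169 was at 3.59 to 7.13 TPM, with the lowest and highest values in saline-sired 3 and morphine-sired 5. Without saline-sired 4 the limma adjusted p of MSTRG.1796 was 0.0398, and without saline-sired 6 that of MSTRG.3190 was 0.0417.

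MSTRG.12848 (chr2:36249118-36250537, 1420 bases), 1222 bases past Htr1a, which encodes the serotonin 1A receptor, was at 7.03, 8.89 and 10.1 TPM in saline-sired and 4.68, 6.02 and 7.07 TPM in morphine-sired libraries. The groups overlapped between saline-sired 4 and morphine-sired 3. The log2 difference was -0.49 ± 0.12 (SE) with a limma adjusted p of 1.00. Htr1a itself was at 10.9 to 33.9 TPM in saline-sired and 12.1 to 16.8 TPM in morphine-sired libraries, which overlap.

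Of the remaining 3, MSTRG.10052 (chr16:70870537-70870739), past the protein O-mannose kinase gene Pomk, was at 1.26 to 3.37 TPM in saline-sired and 0.159 to 1.42 TPM in morphine-sired libraries. MSTRG.15518 (chr3:13914405-13914978), past the proteasome chaperone gene Psmd5, was at 1.68 to 3.27 TPM and 3.36 to 5.00 TPM, without overlap. MSTRG.7636 (chr13:111584549-111585120), before the start of Sertad4, was at 0.247 to 1.06 TPM and 0.770 to 2.77 TPM. MSTRG.15518 and MSTRG.7636 were higher in morphine-sired libraries and MSTRG.10052 lower, and each had a limma adjusted p of 1.00.

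**Figure D5:**
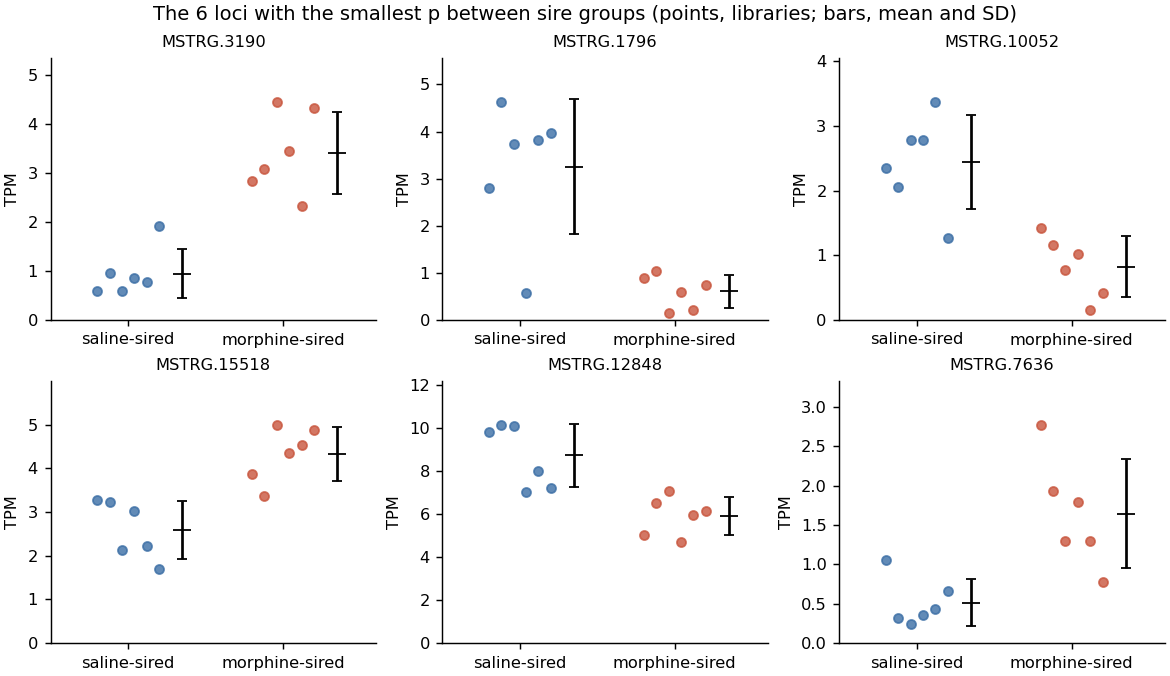
TPM (vertical) of the 6 loci with the smallest p in saline-sired (blue) and morphine-sired (red) libraries; points are libraries, and black bars are the mean and SD of 6. MSTRG.3190 and MSTRG.15518 show no overlap between groups, and in MSTRG.1796 saline-sired 4 lies among the morphine-sired libraries.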

How the data were processed

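Periaqueductal grey polyA RNA was sequenced in 12 rats. Alignment with HISAT2 2.2.0 to Rnor_6.0 and assembly with StringTie 2.1.2, after trimming with Trimmomatic 0.39, are named in the submitters' processing notes, with no order given. Per the file headers, StringTie 1.3.6 wrote the transcript files in its estimation mode against a merged annotation, and the sources used here do not say which libraries were merged. For each transcript the authors' deposited files give its coverage (reads over each base on average, unscaled), its FPKM and its TPM. The sources used here do not say if reads came in pairs or kept their strand. The authors' deposited log2 table holds annotated transcripts alone and was not used.

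Transcript TPM was summed per locus for description, and per locus and symbol for the fit. A neighbour is the annotated gene with the nearest edge, or the host gene. The 24540 of 41596 genes that averaged 0.5 TPM or more entered the fit, made by limma (version 3.58.1, R 4.3.3) on log2(TPM + 1) without covariates, a scale that understates changes of low loci. The fit was tested on simulated data. TPM is relative to the library total, so it moves with abundant transcripts. Read pairs were estimated as coverage times length over 270 bases, and depth limits low loci most. RefSeq symbols (GRCr8) matched 16416 of 32889 annotated genes, and gene order was compared where intervals were at most 1000 kb and differed by at most 1.5 times. Alternatives were a pseudocount of 0.1, no filter, a filter of 2 TPM, FPKM, quantile normalization, voom on estimated reads, and each library left out.

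Loci named are the 10 highest, 6 with the smallest p, 5 with the largest SD over libraries among those of at least 5 TPM, 3 longest, those at the threshold, and any passing an adjusted p of 0.05 in any setting. Other loci were named after their values were seen. The members and lists were chosen with earlier results of these data known.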

Additional observations from a re-analysis of the deposited data

Results flagged for a closer look

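Among the loci described, a library stood apart from the other 5 of its group, by Dixon's ratio of gap to range on log2(TPM + 1), in 23 of 140 groups checked. Chance gives about 1 in 20, and loci that move together are not separate events. Many of the loci were also named for a large spread or after their values were seen, so this share cannot be set against chance.

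Morphine-sired 4 was the highest of its group for 6 of the loci correlated with MSTRG.20509, that locus included, at 733 TPM for MSTRG.8068, 305 TPM for MSTRG.20509, 376 TPM for MSTRG.8087, 419 TPM for MSTRG.20516, 92.3 TPM for MSTRG.20507 and 42.6 TPM for MSTRG.11783. Morphine-sired 2 was the highest for MSTRG.15506 near Lmx1b at 3.78 TPM, MSTRG.17799 past Slc4a5 at 6.03 TPM and MSTRG.24489 past Mir138-1 at 4.38 TPM, and the lowest for MSTRG.22002 past Mir135a at 11.6 TPM. Slc4a5, a choroid plexus bicarbonate transporter gene, was at 6.26 TPM in that library and at 0.644 to 2.51 TPM elsewhere.

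Loci listed at 0 in 1 library of a group were MSTRG.17429 (0 TPM in morphine-sired 1), MSTRG.22610 (0 TPM in morphine-sired 3) and MSTRG.22611 (0 TPM in morphine-sired 2). Loci above 0 in 1 library of a group were MSTRG.25866 (347 TPM in saline-sired 6) and MSTRG.16314 (34.7 TPM in morphine-sired 5).

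Saline-sired 2 was the highest for MSTRG.9015 past Cbln3 at 20.1 TPM and MSTRG.18637 past Car8 at 21.5 TPM. Saline-sired 6 was the highest for MSTRG.3190 at 1.91 TPM and MSTRG.23265 at 1.48 TPM, and the lowest for MSTRG.17016 past Oprl1 at 8.00 TPM. Saline-sired 4 was the lowest for MSTRG.1796 at 0.568 TPM, saline-sired 1 the lowest for MSTRG.11201 at 200.3 TPM, and morphine-sired 1 the highest for MSTRG.16978 past Mir124-3 at 3.16 TPM.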

How the results depend on the processing

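The number of loci depends on the level asked for. It was 2189 at a mean of 2 TPM, 1963 at 1 TPM in every library and 1776 at a mean FPKM of 1, and it was 4501 to 4610 when each library was left out. Within 1 kb of a 3′ end lay 895 loci in place of 1666. The share of a library held by the loci was 1.43% of estimated bases in place of 2.51% of TPM. The median SD within groups was 0.58 with a pseudocount of 0.1 in place of 0.38, since low values weigh more on that scale.

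No locus passed an adjusted p of 0.05 with a pseudocount of 0.1, no filter, a filter of 2 TPM, FPKM, quantile normalization or voom. When each library was left out in turn, 0 to 1 of all genes and 0 to 1 of the loci passed, and 181 to 260 loci were at an unadjusted p under 0.05. With a filter of 2 TPM, 80 of 2189 loci (3.65%) were at an unadjusted p under 0.05, against 202 of 4576 (4.41%) in the main fit. The share of everything tested at that p was not worked out for these alternatives. Leaving out loci listed at 0 in any library or overlapping another, chosen after the data were seen, left 172 of 4069 (4.23%). Everything tested in the main fit gave 3.22%. The median log2 difference of the loci ran from -0.039 to 0.0074 over the libraries left out, an alternative also added after the data were seen. That of MSTRG.8068 ran from -0.23 to 0.30, and that of MSTRG.17955 from -0.084 to 0.064. Of 411 comparisons of 23 named loci with their main value, 404 did not change sign and stayed on the same side of the threshold. These include MSTRG.25866 without saline-sired 6, where the difference was 0 and so had no direction. No named locus passed the threshold in the main fit. No paired analysis was possible because the labels number no replicates; the numbers 1 to 6 used here follow the order of deposit and pair no animals. Loci of few reads limit precision most.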

Other observations

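MSTRG.17272 (chr4:29806681-29808792, 2112 bases) lay 28.6 kb from the nearest annotated gene, Sgce, and was at 96.7 TPM in saline-sired 2, 56.9 TPM in saline-sired 3 and 55.2 TPM in morphine-sired 2, the 3 libraries with the most Tph2, and at 23.2 to 49.2 TPM in the other 9. It was chosen after its values were seen. Morphine-sired 2 also had the most loci listed at 0, 154 of 4576, where the other libraries had 47 to 84.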
